A study of Rattus norvegicus with 24 samples.

Results

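Genes that mark the projection neurons of the striatum, together with the transcription factor gene Foxp2, were followed in rat brain RNA. The 9 genes are Drd1, Pdyn, Tac1, Drd2, Adora2a, Penk, Ppp1r1b, Rgs9 and Foxp2. They were taken by gene symbol from a table of 32883 genes. All 9 symbols were found, each on 1 row, and all 9 passed the filter on low counts in brain. Brain libraries came from Sprague-Dawley rats aged 7 months, 3 labelled SAM-exposed (animals 1, 2 and 3) and 3 labelled Sham (animals 13, 15 and 16). PCBs (polychlorinated biphenyls, persistent chlorinated pollutants) appear in the title of the series, while the treatment label reads SAM, the name used here. The labels give neither dose, duration nor sex, and they name the tissue as brain with no region. They do not state how each piece of brain was cut. The series holds 24 libraries in all, with liver, thymus and spleen sampled from the same exposure groups.

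The striatum is the input nucleus of the basal ganglia, and nearly all of its neurons are GABA-releasing spiny projection neurons. Those of the direct pathway carry the D1 dopamine receptor (Drd1) and make the peptide precursors prodynorphin (Pdyn) and tachykinin 1 (Tac1, the source of substance P). Those of the indirect pathway carry the D2 dopamine receptor (Drd2) and the adenosine A2a receptor (Adora2a) and make proenkephalin (Penk). Both kinds hold DARPP-32 (Ppp1r1b), which turns dopamine signals into phosphatase inhibition, and Rgs9, which shortens G protein signals. Foxp2 is a forkhead repressor found in striatal projection neurons and also in deep cortical layers, thalamus and Purkinje cells, and in humans its loss impairs speech. Several of these genes have other homes: Penk and Tac1 are made in the olfactory bulb and hypothalamus, and Pdyn in the hippocampus and hypothalamus.

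Promoter sequences from RefSeq (build GRCr8) were held for 5 of the 9 genes. The 250 bases before the annotated start are shown for 4 of them, as pairs that the counts set against each other: Pdyn and Tac1, peptide genes of the same pathway whose levels went opposite ways in SAM 1 and SAM 2, and Drd2 and Rgs9, whose profiles over the brain libraries were each other's nearest. Capitals mark every match, on either strand, to 4 motifs. The first is TGCGTCA, a variant of the element through which cyclic AMP acts on transcription. The second is the E-box, written CACGTG, a site read by basic helix-loop-helix factors. The third is the classic TATA box, here the letters TATAAA, which places the start of transcription. The last is the GC box bound by Sp1-type factors, searched as GGGCGG and as its reverse complement.
Pdyn, chr3:137366504-137366753, minus strand: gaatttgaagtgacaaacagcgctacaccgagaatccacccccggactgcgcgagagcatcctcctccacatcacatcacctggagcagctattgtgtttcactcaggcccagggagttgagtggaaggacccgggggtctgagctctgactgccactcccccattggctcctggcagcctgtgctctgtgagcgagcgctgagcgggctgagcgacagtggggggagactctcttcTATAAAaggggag
Tac1, chr4:36645333-36645582, plus strand: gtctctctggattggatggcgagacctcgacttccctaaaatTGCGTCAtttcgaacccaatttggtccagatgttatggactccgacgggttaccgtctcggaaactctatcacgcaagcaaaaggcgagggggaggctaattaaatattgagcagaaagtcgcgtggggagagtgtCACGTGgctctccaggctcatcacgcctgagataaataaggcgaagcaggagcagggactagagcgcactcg
Drd2, chr8:58605153-58605402, plus strand: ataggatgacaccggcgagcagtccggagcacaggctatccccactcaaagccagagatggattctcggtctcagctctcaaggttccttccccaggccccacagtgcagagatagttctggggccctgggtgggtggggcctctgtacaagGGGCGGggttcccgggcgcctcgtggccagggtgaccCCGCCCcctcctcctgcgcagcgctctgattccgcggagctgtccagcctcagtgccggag
Rgs9, chr10:94770388-94770637, minus strand: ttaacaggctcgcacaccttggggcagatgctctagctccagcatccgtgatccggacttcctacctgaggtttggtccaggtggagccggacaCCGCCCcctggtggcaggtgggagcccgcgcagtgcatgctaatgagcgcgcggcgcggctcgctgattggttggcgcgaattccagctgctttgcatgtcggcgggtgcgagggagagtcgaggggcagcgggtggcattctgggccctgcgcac
The Pdyn window held 1 TATAAA, a motif in 12.9% of the 33469 promoters of the table over the same length. The Tac1 window held 1 TGCGTCA (1.66% of promoters) and 1 CACGTG (5.59%). Drd2 held 2 GGGCGG matches and Rgs9 held 1, against 30.5% of promoters with at least 1. The Drd1 window, not shown, held none of the 4 motifs. These are letter matches and no binding was measured.

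The brain libraries were not alike, and this bears on every value below. Totals ran from 12.9 to 19.6 M counts, lowest in SAM 3. SAM 1 and SAM 2 lay apart from the other 4 libraries on the first principal component (70.3% of the variance; -60.8 and -49 against 22.2 to 32.4). In those libraries the median of 7 tested olfactory bulb markers lay 3.51 and 3.32 above the Sham mean on the log2 scale, and that of 10 cortical excitatory neuron markers lay at -1.98 and -1.67 on the same scale. SAM 3 lay with Sham on both lists (0.21 and -0.09), but its blood markers were 1.39 above. General neuronal genes such as Snap25 and Syp were plentiful in all 6, with summed levels of 6370 to 8760.0 CPM (counts-per-million, scaled between libraries by TMM). The part of tissue composition in the results was not tested, and in bulk RNA fewer cells of a type and less RNA per cell cannot be told apart.

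The first question was whether the 9 genes differed between SAM-exposed and Sham brains. Their levels were lower in SAM for 7 genes, by 2.03-fold (Foxp2) to 3.69-fold (Pdyn) between group means, and higher for Tac1 and Penk (48.6% of all brain genes tested had lower means). No gene passed after adjustment. edgeR's quasi-likelihood test called 0 of 15126 brain genes (0%) at an adjusted p of 0.05, and 0 of the 9. At an unadjusted p under 0.05 it marked 6 of the 9, all lower in SAM (Drd1, Pdyn, Drd2, Adora2a, Ppp1r1b and Foxp2), where 8.61% of all brain genes were marked lower and 20.5% in either direction. DESeq2 called 3 of the 9, Drd1, Pdyn and Foxp2, all lower, against 0.927% of genes called lower and 3.43% called in all. These were the same 3 genes whose SAM libraries all lay below every Sham library, a pattern seen in 12.2% of brain genes (23.8% had groups that did not overlap in either direction). Without SAM 3, edgeR called 5896 genes (38.1% of those tested), among them 6 of the 9, and in a fit over all 24 libraries it called 579 (3.29%), among them 4 of the 9. The median log2 fold change of the 9 was -1.32, beside 0.01 over all genes tested. The 9 genes were chosen with earlier results of these data known. Their excess over the shares of all genes is therefore not independent evidence.

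**Figure D1:**
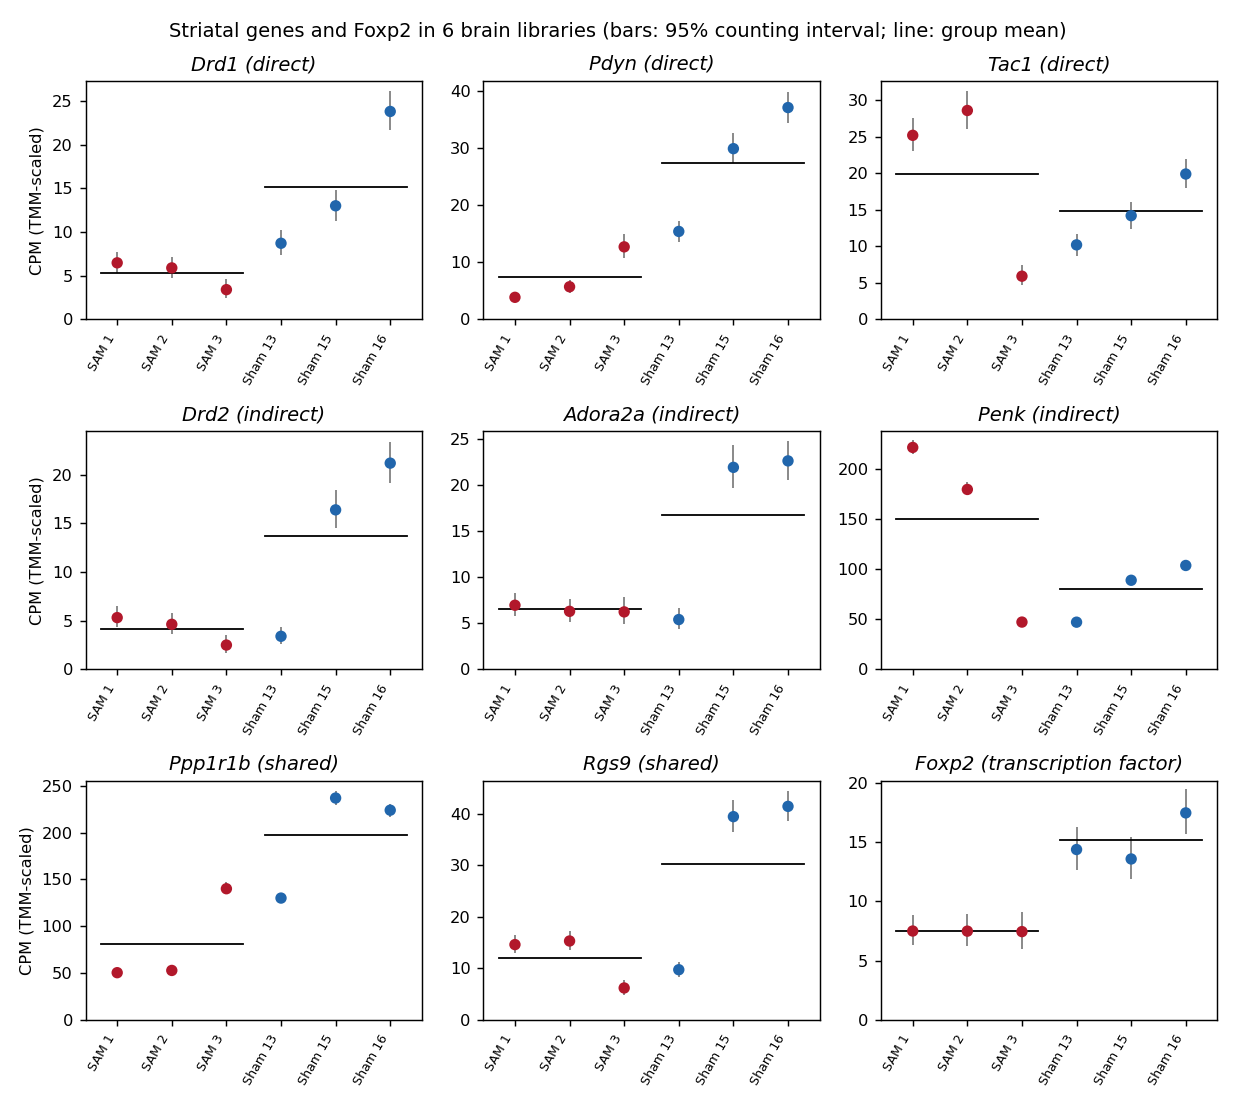
Level of each gene (vertical axis, TMM-scaled CPM) in the 6 brain libraries (SAM red, Sham blue); bars are 95% exact Poisson intervals of the counts and black lines the group means. Foxp2 sits at 7.45 to 7.5 CPM in all SAM libraries, while Adora2a, Drd2 and Rgs9 in Sham 13 lie with the SAM libraries and not with Sham 15 and Sham 16.

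Foxp2 (ENSRNOG00000054508) gave the clearest separation. It stood at 7.5, 7.49 and 7.45 CPM in SAM 1, 2 and 3, and at 14.4, 13.6 and 17.5 CPM in Sham 13, 15 and 16. The SAM libraries agreed more closely than their counts of 138, 126 and 92 can resolve (95% exact Poisson interval 6.01 to 9.14 CPM in SAM 3), and every Sham value lay above those intervals. The log2 fold change was -1.02 ± 0.13 (SE) with an edgeR adjusted p of 0.221 and a DESeq2 adjusted p of 2.98e-05. Its unadjusted p of 0.000135 ranked 2 among the 15126 genes tested. The difference was as large with any library left out (-1.09 to -0.91), and with SAM 3 as the sole SAM library it was -1.03. SAM 3 had list medians over the Sham mean of 0.21 for olfactory bulb, 1.39 for blood and -0.58 for cortical layer 6. The part of these in its Foxp2 value was not tested. Medians of several marker lists were also below the Sham mean in all 3 SAM libraries. With the 9 genes left out, the indirect pathway list stood at -0.84, -0.94 and -0.83 in SAM 1, 2 and 3 (log2 scale). The list of genes shared by both striatal neuron types stood at -0.46, -0.42 and -0.29. Receptor, peptide processing, striatal interneuron, cortical excitatory and hippocampus lists were below the Sham mean too, but mostly by little in SAM 3. There the last 4 of these lists stood at -0.11, -0.17, -0.09 and -0.07, where Sham 16 stood at -0.05, -0.22, -0.05 and -0.01. Without the members, the receptor list stood at -0.05, -0.02 and -0.29 in SAM 1, 2 and 3, and at -0.19 in Sham 15. All 9 oligodendrocyte genes tested had lower means in SAM, where 48.6% of all brain genes tested did. For 6 of the 9 the groups did not overlap, a pattern of lower SAM seen in 12.2% of brain genes. None of these oligodendrocyte genes passed the edgeR threshold, and neither did any other brain gene. In DESeq2, Mog from this list was called lower (adjusted p 0.0135), where 0.927% of genes were. The list median over the Sham mean was -0.29, -0.53 and -0.51 in SAM 1, 2 and 3. The summed level of these oligodendrocyte genes was 4500 to 6040 CPM in SAM and 6040 to 7200 CPM in Sham. General neuronal genes had medians of -0.20, -0.23 and -0.19, with 5 of 7 lower. The part of these shifts in the Foxp2 difference was not tested.

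Of the dopamine receptors, Drd1 (ENSRNOG00000023688) counted 6.47, 5.89 and 3.4 CPM in animals SAM 1, 2 and 3, with 8.71, 13 and 23.8 CPM in Sham 13, 15 and 16. The groups did not overlap, but Sham 13 was closer to SAM 1 than to Sham 16, and the Sham libraries alone spanned 2.74-fold. The log2 fold change was -1.52 ± 0.41 (edgeR adjusted p 0.221, DESeq2 0.0175). Drd2 (ENSRNOG00000008428) gave 5.33, 4.64 and 2.51 CPM in the SAM libraries, with 3.41, 16.4 and 21.2 CPM in Sham 13, 15 and 16. Here Sham 13 lay inside the SAM range and the Sham libraries spanned 6.23-fold, on counts of 61 to 412. Its log2 fold change of -1.70 ± 0.64 had an adjusted p of 0.228 in edgeR and 0.0776 in DESeq2. Adora2a (ENSRNOG00000001302), the A2a receptor that opposes Drd2 in the same neurons, also had Sham 13 with the SAM libraries, and its spread in SAM was less: 6.96, 6.3 and 6.24 CPM, against 5.41 CPM in Sham 13 and 21.9 and 22.6 CPM in Sham 15 and 16. Sham 13 was thus the lowest of all 6 libraries for Adora2a (log2 fold change -1.35 ± 0.50, edgeR adjusted p 0.226).

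The peptide precursors split. Pdyn (ENSRNOG00000026036) was at 3.86, 5.71 and 12.7 CPM in SAM 1, 2 and 3 and at 15.4, 29.9 and 37.1 CPM in Sham 13, 15 and 16. The groups did not overlap, and SAM 3 lay close under Sham 13. Pdyn had the largest fold change of the 9 genes, -1.91 ± 0.50 on the log2 scale (edgeR adjusted p 0.221, DESeq2 0.00886), and with SAM 3 as the only SAM library it was -1.11. Penk (ENSRNOG00000008943) was at 222 and 180 CPM in SAM 1 and 2, above every Sham library (47.3, 89.2 and 104 CPM), but at 47.4 CPM in SAM 3, level with Sham 13. Tac1 (ENSRNOG00000007374) showed the same layout, with 25.2 and 28.6 CPM in SAM 1 and 2, 5.91 CPM in SAM 3, and 10.2, 14.2 and 19.9 CPM in Sham. For both genes the group difference came from SAM 1 and SAM 2, the libraries high in olfactory bulb markers. The log2 fold changes were 0.90 ± 0.56 for Penk and 0.44 ± 0.54 for Tac1 (edgeR adjusted p 0.358 and 0.632), and against Sham SAM 3 alone gave -0.76 and -1.32. With SAM 3 left out, Penk (1.32) and Tac1 (0.86) passed as higher in edgeR (adjusted p 0.00548 and 0.0194).

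Of the signalling genes shared by both neuron types, Ppp1r1b (ENSRNOG00000028404) was at 50.2, 52.6 and 140 CPM in SAM 1, 2 and 3 and at 130, 237 and 224 CPM in Sham 13, 15 and 16. SAM 3 was above Sham 13, so the low values were those of SAM 1 and SAM 2. Rgs9 (ENSRNOG00000003800) had the other order: SAM 3 was lowest at 6.16 CPM, then Sham 13 at 9.71, SAM 1 and 2 at 14.6 and 15.3, and Sham 15 and 16 at 39.5 and 41.5. The log2 fold changes were -1.28 ± 0.45 for Ppp1r1b and -1.32 ± 0.58 for Rgs9 (edgeR adjusted p 0.223 and 0.256). These similar means were made by different libraries, as the Ppp1r1b over Rgs9 log2 ratio shows: it was 1.77 in both SAM 1 and SAM 2 but 4.48 in SAM 3, and the Sham libraries ran from 2.43 to 3.72.

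**Figure D2:**
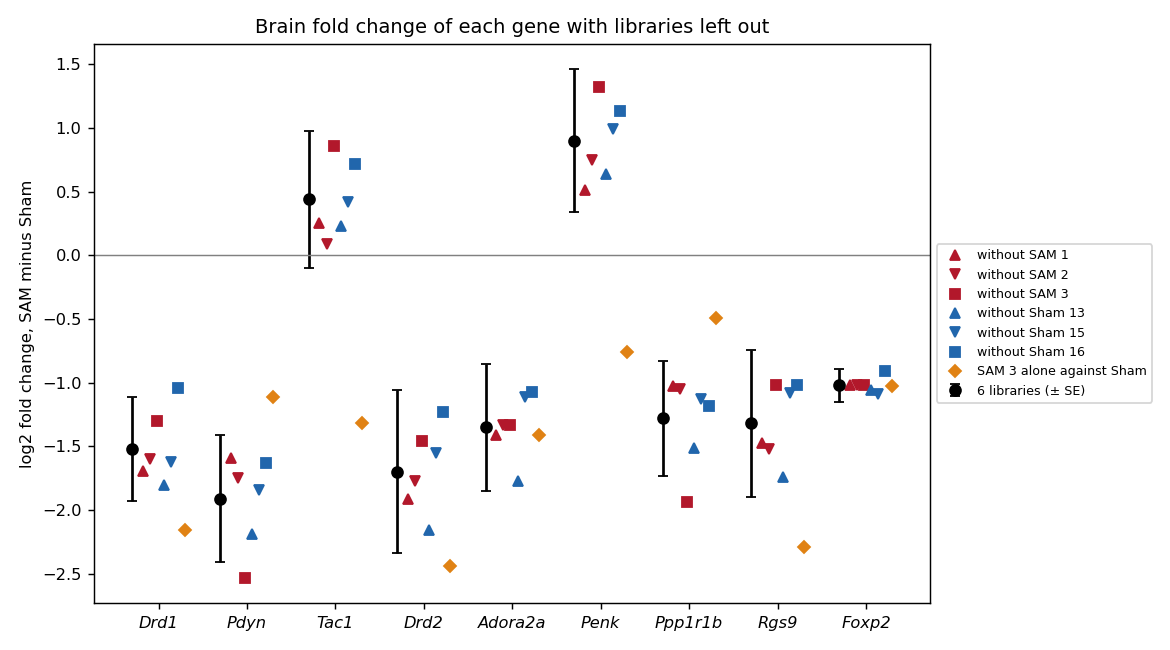
Log2 fold change, SAM minus Sham, of each gene (vertical axis) from the fit to all 6 brain libraries (black, ± SE), with each library left out (red and blue) and with SAM 3 alone against Sham (orange). Foxp2 stays between -1.09 and -0.91, whereas Tac1 and Penk go from above 0 to -1.32 and -0.76 when SAM 3 stands alone.

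The variation among the Sham brains had a shape of its own. In Sham 13, 6 of the 9 genes (Pdyn, Drd2, Adora2a, Penk, Ppp1r1b and Rgs9) were lower by over 1.5-fold than in both other Sham libraries, a pattern found in 2.6% of brain genes. That limit was chosen after the values were seen. Drd1 (8.71 against 13 and 23.8 CPM) came near it and Tac1 was also lowest there, while Foxp2 was not (14.4 CPM, between Sham 15 and Sham 16). Within Sham, Foxp2 spanned 1.28-fold where Drd2, Rgs9 and Adora2a spanned 6.23, 4.27 and 4.18-fold. Of the other indirect pathway genes, Gpr6, an orphan receptor of these neurons, was also low there, at 0.782 CPM in Sham 13 and 6.18 and 7.26 CPM in Sham 15 and 16. Gpr52 (11.5 CPM in Sham 13, 6.67 and 11.9 in Sham 15 and 16) and Sp9 (1.17, 1.7 and 1.24 CPM) did not show that gap between Sham 13 and both other Sham libraries. Cortical excitatory markers in Sham 13 were level with the other Sham libraries (median log2 ratio 0.01). Without Sham 13 edgeR still called 0 genes, and leaving it out moved the median of the 9 to -1.74.

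SAM 3 held the lowest level of all 6 libraries for 5 of the 9 genes (Drd1, Tac1, Drd2, Rgs9 and Foxp2), against 14.8% of brain genes. It lay below every Sham library for 6 of the 9, against 27.6% of genes. Beside Sham 13, SAM 3 had nearly the same Penk (47.4 and 47.3 CPM), Adora2a (6.24 and 5.41) and Ppp1r1b (140 and 130), but less Drd1 (3.4 and 8.71), Tac1 (5.91 and 10.2), Rgs9 (6.16 and 9.71) and Foxp2 (7.45 and 14.4). SAM 3 had the smallest total and the most mitochondrially encoded RNA (10.5% of counts, 8.04 to 8.99% in the other 5), and the part of these in its values was not tested.

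Direct and indirect pathway genes were then set against each other within each library, which cancels any factor common to both. Averaged over Drd1, Pdyn and Tac1, the direct genes were at 3.05 ± 0.32 log2 CPM in SAM and 4.11 ± 0.61 in Sham (SD, n = 3). Drd2, Adora2a and Penk averaged 3.90 ± 0.61 and 4.50 ± 1.05. The difference of direct minus indirect was -1.23, -0.82 and -0.51 in SAM 1, 2 and 3 and 0.20, -0.84 and -0.50 in Sham 13, 15 and 16. The groups overlapped, and the group difference of -0.47 was within the spread of Sham (SD 0.53). It was -0.18 without Sham 13, -0.28 without SAM 1, and -1.10 with Tac1 left out of the direct set. No test was made of this score, since its genes were picked with the data known.

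Single ratios went different ways. The log2 ratio of Drd1 over Drd2 was 0.27, 0.34 and 0.42 in SAM and 1.32, -0.33 and 0.17 in Sham 13, 15 and 16, so the receptor balance of the SAM brains lay inside the Sham range (difference of means -0.04). Pdyn over Penk was nearly fixed among the Sham brains, at -1.62, -1.57 and -1.49, although each gene alone varied by more than 2-fold there (2.42 and 2.2). It was -1.89 in SAM 3, just outside, and -5.80 and -4.95 in SAM 1 and SAM 2. In counts, those libraries held 57.5 and 31.5 Penk reads for each Pdyn read, where the other 4 held 2.81 to 3.73. These ratios compare libraries and not the genes, since reads were not scaled by transcript length. Tac1 over Penk moved little, between -3.13 and -2.65 in SAM and between -2.64 and -2.21 in Sham. Penk and Tac1 thus kept close to each other across libraries that differed severalfold in both.

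**Figure D3:**
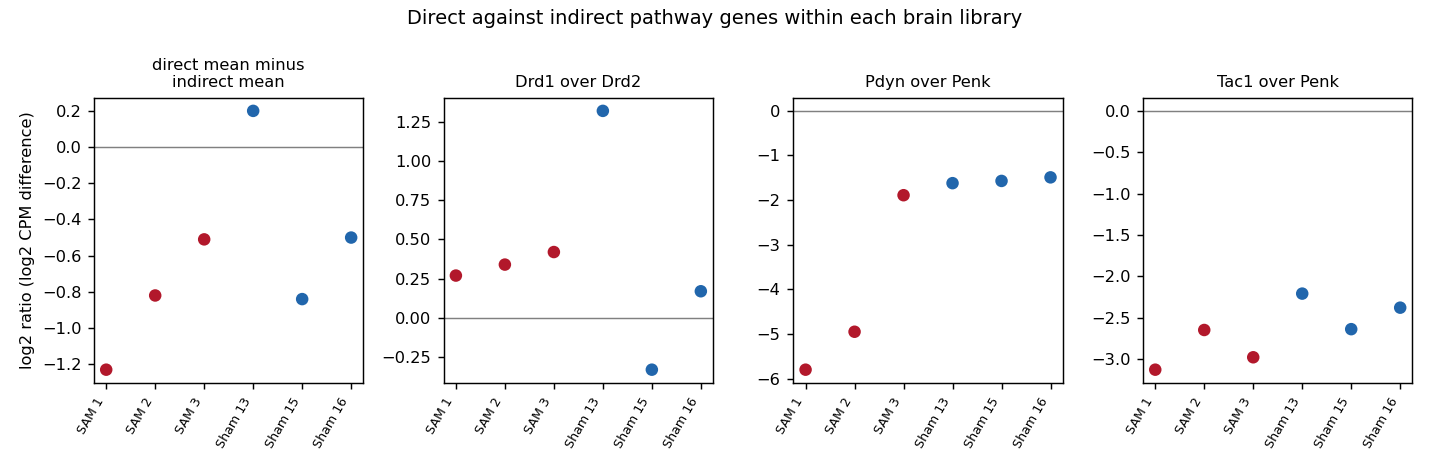
Log2 ratios within each brain library (SAM red, Sham blue): mean of the direct pathway genes minus mean of the indirect ones, then Drd1 over Drd2, Pdyn over Penk and Tac1 over Penk. Pdyn over Penk is -5.80 and -4.95 in SAM 1 and SAM 2 and between -1.89 and -1.49 in the other 4 libraries.

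Similarity was measured as the root mean square difference between log2 CPM profiles over the 6 libraries, each centred on its own mean. By this measure some of the 9 genes lay close together. Drd2 and Rgs9 were nearest to each other among 14273 candidates (0.23), with Adora2a close by (0.37 and 0.40) and Drd1 next (0.49 and 0.47). Foxp2 lay at 0.49 from Drd1, as Drd2 did, but farther from Rgs9 (0.78) and Drd2 (0.86). Foxp2 ranked 8 among the 14273 candidates by nearness to Drd1, whereas Drd1 ranked 4689 by nearness to Foxp2. Pdyn and Ppp1r1b were also close (0.34), as were Penk and Tac1 (0.32). The largest distance was 1.78, between Pdyn and Penk. Nearness did not always follow the pathways: Drd1 was nearer to Drd2, Adora2a and Rgs9 than to Pdyn (0.83) or Tac1 (0.94), and the direct pathway peptides Pdyn and Tac1 lay 1.61 apart. The genes closest to Drd1 were Ncaph (0.33), Dscc1 (0.40), RGD1560775 (0.42), Rgs9 (0.47) and AABR07009715.1 (0.48), of which Rgs9 ran from 6.16 to 41.5 CPM and the others from 0.405 to 6.44 CPM. Foxp2 was nearest to RGD1560034 (0.10), Slc44a5, a choline transporter-like gene (0.14), LOC108348081 (0.16), Dach1, a transcriptional regulator (0.17), and Bhmt, which remethylates homocysteine (0.18). With 6 libraries such nearness describes these samples only.

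Lists of related genes show whether the 9 stood alone. Among other direct pathway markers 4 were tested, and their means lay near those of Sham: Chrm4, a muscarinic receptor, was at 0.03 ± 0.12, Sfxn1 at 0.07, Ebf1 at 0.16 and Eya1 at -0.22 (log2 fold changes, unadjusted p from 0.45 to 0.822). Of the 3 other indirect pathway markers, Gpr6 (-1.66 ± 0.72) and Gpr52 (-0.93 ± 0.24), an orphan receptor, were lower, and the transcription factor gene Sp9 was higher (3.15 ± 0.81; 20.5 and 13.8 CPM in SAM 1 and 2, and 1.17 to 1.7 CPM in the other 4). Of 22 genes shared by both neuron types, 16 had lower means in SAM (median -0.45). Without the members Ppp1r1b and Rgs9 it was 14 of 20 (median -0.40), beside 48.6% of all brain genes tested. At an unadjusted edgeR p under 0.05, 6 of the 22 were marked lower and 1 higher, and 5 of the 20 lower and 1 higher. Over all brain genes tested, 8.61% were marked lower and 20.5% in either direction. Foxp1 (-0.89), the closest relative of Foxp2, Pde10a (-0.65), a striatal phosphodiesterase, Ptpn5 (-0.73), a striatum-enriched phosphatase, Adcy5 (-0.40), the main striatal adenylyl cyclase, and Strn (-0.39) were the others lower by that measure, with Ppp1r1b. Meis2, a homeobox gene, was the higher one (1.99). None passed in edgeR after adjustment (adjusted p 0.221 to 0.240 for these).

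Genes that receive or process the peptides did not follow a single line. In the list of dopamine, opioid, tachykinin and adenosine receptors 10 of 13 were tested, and 7 were lower. Without the members Drd1, Drd2 and Adora2a it was 4 of 7 (median -0.08), beside 48.6% of all brain genes tested. The lower receptors beyond the members included Oprk1 (-1.74 ± 0.69), the dynorphin receptor, at 8.34 CPM in Sham 16 and 1.03 to 2.85 CPM elsewhere, and Tacr3 (-1.15 ± 0.32), a tachykinin receptor. Tacr1, the substance P receptor, was at 1.13 ± 0.50. It stood at 3.42 and 4.04 CPM in SAM 1 and 2, 0.972 CPM in SAM 3 and 1.03 to 1.65 CPM in Sham. Of the enkephalin receptors, Oprd1 was near its Sham level (-0.08). Oprm1 (0.37) was at 3.75 CPM in both SAM 1 and SAM 2, 1.54 CPM in SAM 3 and 1.45 to 2.94 CPM in Sham. Among prohormone processing genes all 5 tested had lower means (median -0.39), led by Pcsk2 at -0.87 ± 0.38, where 48.6% of all brain genes had lower means. None of these passed in edgeR (adjusted p of 0.221 or more).

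For Foxp2, the relatives and reported targets were set beside it. Foxp4 was at -0.15 ± 0.12 and Foxp1, as above, at -0.89 ± 0.31 (13, 14.7 and 29.9 CPM in SAM, 33, 39.6 and 33.5 CPM in Sham 13, 15 and 16). Foxp1 in SAM 3 was thus near Sham, unlike Foxp2. Of reported targets, Mef2c was at -0.61 ± 0.22, Vldlr at -0.43 and Cntnap2, a neurexin family adhesion gene, at -0.24, while Srpx2 (0.08) and Disc1 (0.47) were not lower. No member of this list passed (edgeR adjusted p 0.223 to 0.933). Marker lists of other places where Foxp2 is made differed between the SAM libraries. Cortical layer 6 genes had a median log2 fold change of 0.23 (3 of 7 lower), thalamus genes 0.83 (2 of 8 lower) and cerebellum genes -0.32 (3 of 5 lower). In SAM 1, 2 and 3 the layer 6 median over the Sham mean was 0.46, 0.06 and -0.58. That of thalamus was 0.96, 0.92 and 0.20, and that of cerebellum -0.95, -0.77 and 0.41. Calb2 is on both the thalamus and the olfactory bulb list. The part of these places in the Foxp2 difference was not tested. Tle4, a layer 6 corepressor gene, was lower in every SAM library (59.9, 64.8 and 63.9 CPM against 76.8 to 79.8 in Sham; -0.32 ± 0.07, edgeR adjusted p 0.221). Of the other layer 6 genes, 3 had SAM means above Sham by over 1 on the log2 scale, with the high values in SAM 1 and SAM 2: Ntsr1 was at 2.40 ± 0.87, Syt6 at 1.82 ± 0.66 and Nxph4 at 1.36 ± 0.76 (edgeR adjusted p 0.225, 0.225 and 0.322). The cerebellar marker Pcp2 was at most 0.217 CPM in any library.

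**Figure D4:**
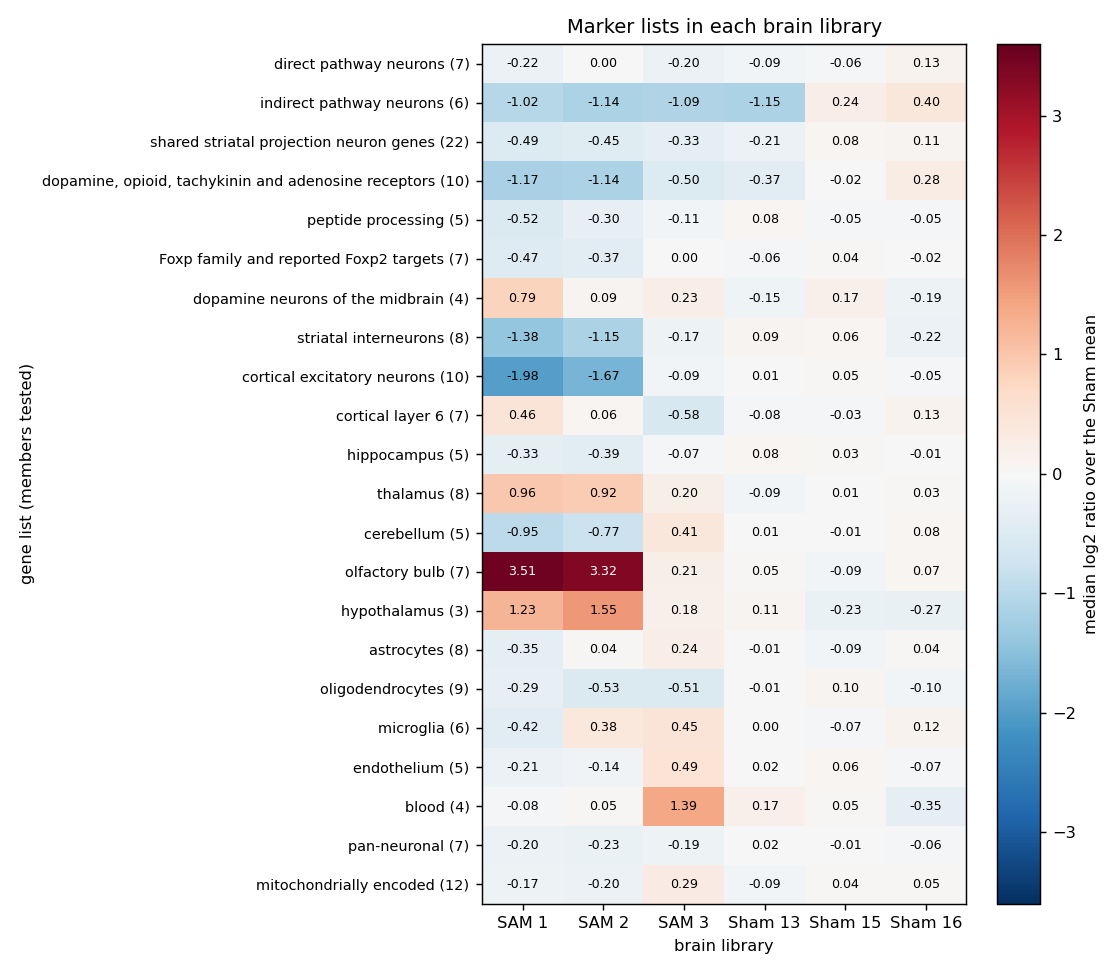
Median log2 ratio over the Sham mean for each gene list (rows, members tested in brackets) in each brain library (columns), red above and blue below. Indirect pathway genes are at -1.02 to -1.15 in SAM 1, 2, 3 and Sham 13. With the members Drd2, Adora2a and Penk left out (not plotted), that list is at -0.84, -0.94 and -0.83 in SAM 1, 2 and 3 and at -0.16 in Sham 13. Olfactory bulb genes are at 3.51 and 3.32 in SAM 1 and SAM 2 and at -0.09 to 0.21 in the other 4 libraries.

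Outside the brain the 9 genes had separate ranges, given here with libraries scaled within each tissue, so that levels in different tissues are only roughly comparable. Adora2a was the exception to brain enrichment: it was at 21.3 to 23.3 CPM in the 6 thymus libraries, level with Sham 15 and Sham 16 brain, and at 11.7 to 16 CPM in spleen and 1.83 to 4.11 CPM in liver. In thymus the groups overlapped (22.3 ± 0.944 in SAM, 22 ± 0.893 in Sham), and in spleen every SAM library lay above every Sham library (15 ± 1.06 against 12.8 ± 0.982), which was not tested. Penk was at 2.03 to 6.45 CPM in thymus and below 1 CPM in spleen, and Tac1 at 1.57 to 2.44 CPM in thymus. Rgs9 was at 1.73 to 3.31 CPM in thymus and 1.41 to 2.24 CPM in spleen. Foxp2 was near 1 CPM in spleen (0.636 to 1.49) and at 0.861 CPM or less in thymus and liver. Drd1, Drd2 and Pdyn had at most 7 counts in any liver, thymus or spleen library, and Drd2 and Pdyn had 0 in all spleen and liver libraries.

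**Figure D5:**
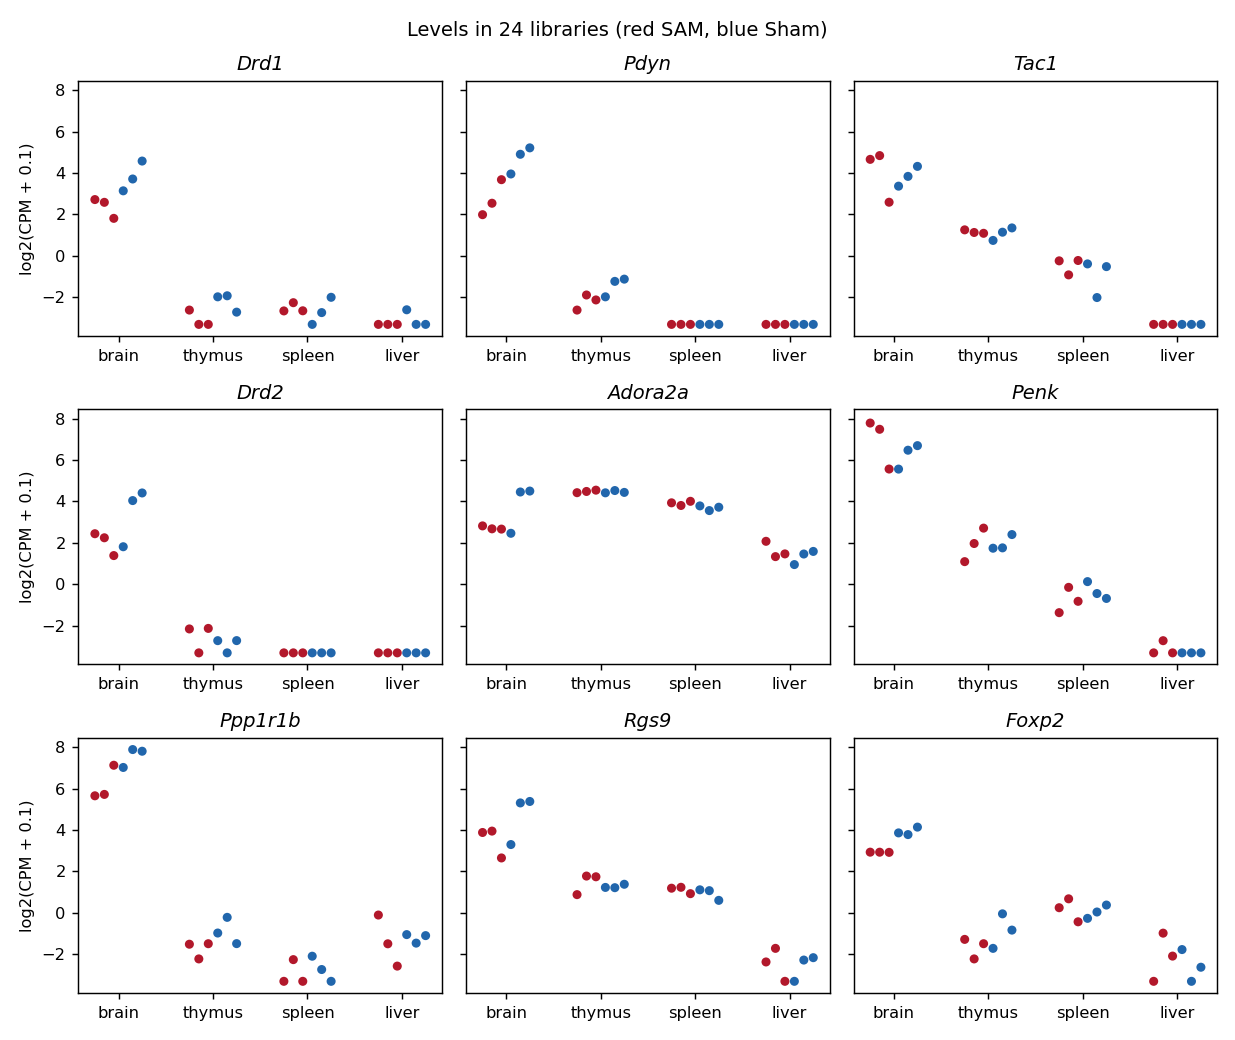
Level of each gene as log2(CPM + 0.1) in all 24 libraries by tissue (SAM red, Sham blue); points at the bottom are libraries with 0 counts. Adora2a is as high in thymus (21.3 to 23.3 CPM) as in the highest brain libraries, while Drd1, Drd2 and Pdyn are near 0 outside the brain.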

How the data were processed

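Per the labels' protocols, an RNeasy kit gave total RNA, from which stranded TruSeq mRNA libraries were built. STAR 2.2.1 and build rn6 are named, without a role, per the submitters' processing notes; how reads were counted, with or without strand, and over which gene models is not given in the sources used here. The authors deposited raw counts per gene; each column was tied to its sample through the tissue and number in its name.

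The 6 brain libraries were fitted alone in edgeR 4.0.16 (R 4.3.3): filterByExpr, TMM, quasi-likelihood test, Benjamini-Hochberg over all genes tested at 0.05. The SE is the log2 fold change over the root of the test's F. Alternatives were RLE scaling, DESeq2 1.42.0 on the same genes, no filter, 1 fit over 24 libraries, and libraries left out. Log2 CPM used a prior count of 2, and list ratios added 0.5 CPM. Poisson intervals cover counting error only.

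Text names the 9 members, up to 3 members of each list by lowest p at a mean of 1 CPM or more, and the 5 nearest profiles to Drd1 and to Foxp2; other genes were chosen after their values were seen. Of 188 listed symbols, 184 were found. Members and lists were chosen with earlier results of these data known. The labels do not say that libraries came from separate animals beyond their numbers, so p-values measure the spread between these libraries. The chi-square per degree of freedom between replicates was 5.95 to 72.6, far above sampling noise, and every library was kept as its own replicate.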

Additional observations from a re-analysis of the deposited data

How the results depend on the processing

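The count of brain genes called by edgeR (0) stayed 0 with RLE scaling and with no filter, and ran from 0 to 5896 with each library left out, the 5896 without SAM 3. DESeq2 called 488, the fit over all 24 libraries 579, and SAM 3 alone against Sham 1; that lone library was assumed to vary as Sham does. Of the 9 genes, 4 passed in the 24-library fit (Drd1, Pdyn, Adora2a and Ppp1r1b, all lower; 3.29% of genes called) and 6 without SAM 3 (Drd1, Pdyn, Ppp1r1b and Foxp2 lower, Tac1 and Penk higher; 38.1% of genes called). Foxp2 did not pass in the 24-library fit (edgeR adjusted p 0.112). With SAM 3 alone, Tac1 (-1.32) and Penk (-0.76) reversed; the cause was not tested. The direct minus indirect difference of -0.47 was -1.10 without Tac1 in the direct set, and between -0.70 and -0.18 with each library left out. No paired analysis was possible because SAM and Sham brains share no animal number. With 3 libraries a group, 31 Drd2 counts in SAM 3 limit the precision of the low genes.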

Other observations

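Other cells of the striatum and its dopamine input were read too. Of 8 striatal interneuron genes tested, 6 had lower means in SAM brain (median log2 fold change -1.27), where 48.6% of all brain genes tested did. Among the 6 were Sst (23, 31.7 and 56.5 CPM in SAM, 98.6, 92.7 and 69.8 CPM in Sham 13, 15 and 16, log2 fold change -1.24 ± 0.33) and Lhx6 (-1.53 ± 0.40). Nos1 was at 143 and 137 CPM in SAM 1 and 2 and 19.5 to 26.5 CPM in the other 4. None passed in edgeR (adjusted p of 0.221 or more), and neither did any other brain gene. In DESeq2, Nos1 was called higher (adjusted p 0.0147), where 3.43% of genes were called in either direction. Th, which makes dopamine precursors, was at 63.1 and 32.1 CPM in SAM 1 and 2 and 0.979 to 3.07 CPM elsewhere. The dopamine transporter gene Slc6a3 was at 11.8 and 4.64 CPM in SAM 1 and 2 and at most 0.243 CPM elsewhere. Th is on both the midbrain dopamine neuron list and the olfactory bulb list. The olfactory bulb list median over the Sham mean was 3.51 and 3.32 in SAM 1 and SAM 2. The part of the olfactory bulb in the Th and Slc6a3 values was not tested. Pitx3 and En1, midbrain dopamine neuron factors, stayed at or under 0.279 CPM in all 6 libraries.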
